A study of Rattus rattus with 12 samples.

Results

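Perigonadal adipose tissue was compared between 3 untreated control libraries and 3 libraries of slurry treated tissue taken at day 14 post treatment, out of 12 libraries in 4 groups. All rats were male Sprague-Dawley, bought at 8 weeks of age and 200 g, and a high fat diet (60 kcal% fat) was given throughout, starting 9 weeks ahead of treatment. In the day 14 group the fat pad of one side had been reached by opening the abdomen and had received 10 ml of ice slurry, a cold suspension of saline and glycerol. According to the methods the untreated side served as control, and the labels do not say which animals or which day gave the control libraries, so surgery, time and slurry cannot be told apart in this comparison. Transcripts were counted as measured if at least 3 of the 6 libraries had 10 or more reads. Of 46726 listed transcripts 25424 passed this rule, and 21302 did not, of which 11094 had no read in any of the 6 libraries. The 25424 transcripts held between 99.6% and 99.8% of the TPM (a level scaled for transcript length and library size) of each library.

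Visceral fat is built of large lipid-filled adipocytes among fibroblasts, vessels and immune cells, and the adipocyte takes up most of its volume. Cooling that crystallizes lipid kills adipocytes while sparing other cells, a process called cryolipolysis, and dead adipocytes are cleared by macrophages over the following weeks while connective tissue is laid down. Bulk RNA from such tissue is a mixture, and fewer cells of a type and less RNA per cell cannot be told apart in it. The tables list transcripts by Ensembl identifier only, and 0 of these identifiers were found in the gene table used here, so transcripts are described by abundance and length, the tissue label was not checked against marker genes, and no sequence is shown.

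The total estimated count was 22715819, 26559350 and 25874329 in control replicates 1 to 3 and 21057277, 25826040 and 26729799 in day 14 replicates 1 to 3. The number of transcripts with 10 or more reads was 23316, 24484 and 24622 in the control libraries and 24713, 25158 and 25401 at day 14. Every day 14 library thus had more transcripts at this level than any control library, including day 14 replicate 1, which had the fewest reads. Counts of libraries of 1 group were apart by far more than counting noise (chi-square divided by degrees of freedom from 68.0 to 164 in the 6 within-group pairs). The division of shared reads among isoforms is not part of counting noise, so these values do not show that the libraries came from separate animals.

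To measure how much of the transcriptome moved, the TPM differences of the 25424 transcripts were summed for each pair of libraries, as the mean of the summed gains and the summed losses in percent of a library. For control replicates 1, 2 and 3, the TPM that differed from day 14 replicate 1 was 24.5%, 19.99% and 19.4%. From day 14 replicate 2 it was 19.4%, 15.7% and 16.5%, and from day 14 replicate 3 it was 13.5%, 12.5% and 16.4%. Day 14 replicate 3 thus lay nearest to the controls and replicate 1 farthest. The 3 pairs of control libraries differed in 11.4%, 12.9% and 10.5% of TPM. The pairs of day 14 libraries differed in 12.3% for replicates 1 and 2, 19.99% for replicates 1 and 3 and 13.8% for replicates 2 and 3. Pairs across the groups averaged 17.6% and pairs within a group 13.5%, a difference of 4.05 percentage points (one-sided exact permutation test, n = 3 libraries per group, p = 0.1, the smallest p that 3 against 3 can give). It was 7.47 percentage points without day 14 replicate 3 and 2.58 without control replicate 1, so its size rested on single libraries while pairs across the groups stayed farther apart on average in each of the 6 repeats that left out 1 library.

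**Figure D1:**
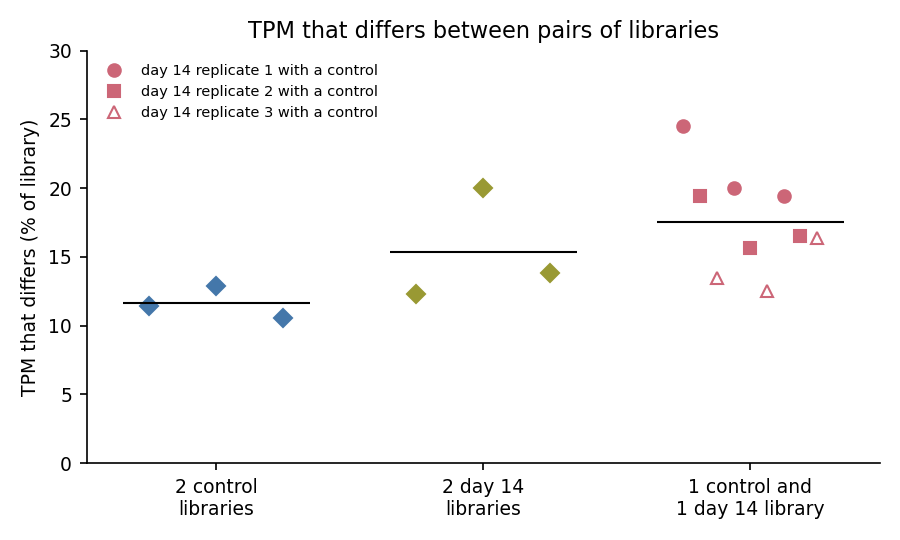
Each point is a pair of libraries, and the vertical axis gives the TPM that differs between them in percent of a library, with black lines at the means. The control pairs lie between 10.5% and 12.9%, the day 14 pairs between 12.3% and 19.99%, and the pairs across the groups between 12.5% and 24.5%, with open triangles for day 14 replicate 3.

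Between the group means, transcripts that were higher at day 14 gained 13.6% of TPM and those that were lower lost 13.7%. These values include the spread between libraries of 1 group, and single libraries differed from each other by 11.6% on average within the controls and by 15.4% within day 14. The gain was spread over 15665 transcripts, yet 169 of them made up 50% of it and 4295 made up 90%. The loss was spread over 9759 transcripts, of which 112 made up 50% and 2039 made up 90%. The 100 largest gains held 43.1% of the gained TPM and the 100 largest losses 48.6% of the lost TPM. Of the 100 largest gains, 64 were transcripts of 100 to 1000 TPM and 36 of 1000 TPM or more, and of the 100 largest losses 60 and 40 fell into these classes. Groups did not overlap in TPM for 68 of the 100 largest gains and 54 of the 100 largest losses, against 25.7% of all 25424 transcripts. The ranking itself favours transcripts with a large difference, and these counts are a description.

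**Figure D2:**
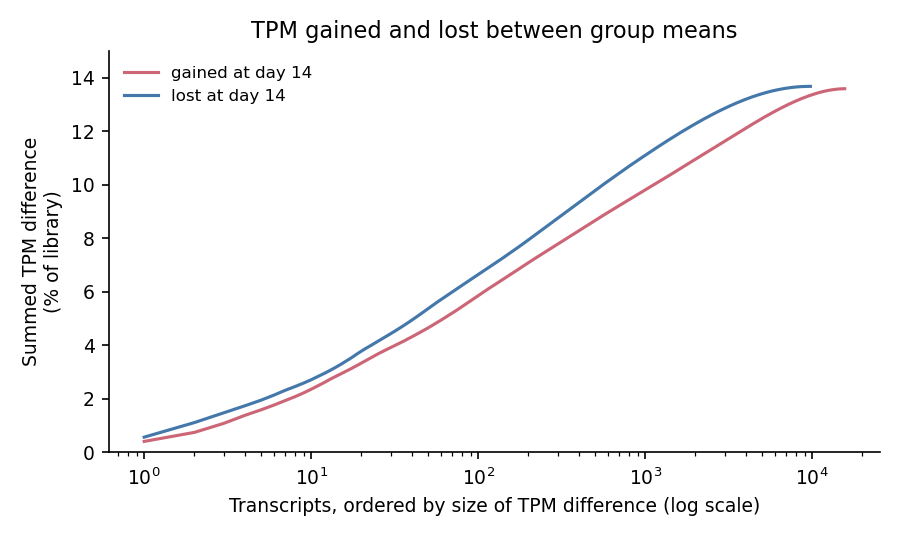
The horizontal axis (log scale) counts transcripts in order of the size of their TPM difference between group means, and the vertical axis sums these differences in percent of a library. The curve of losses reaches 50% of its total of 13.7% after 112 transcripts, and the curve of gains reaches 50% of its total of 13.6% after 169.

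Per transcript, the estimated counts were tested with edgeR's quasi-likelihood test. More than 2-fold change at a Benjamini-Hochberg adjusted p under 0.05 was reached by 224 transcripts or 0.881% of the 25424 tested, with 136 (0.535%) above and 88 (0.346%) below control (n = 3 libraries per group). Of the 136 higher transcripts 17 had passed the read rule through the day 14 libraries alone and 9 of the 88 lower ones through the control libraries alone, so these had to differ. In 14 of the 136 higher transcripts every control library had at most 3 reads, and in 9 of the 88 lower ones every day 14 library had at most 3. All 224 had groups that did not overlap in TPM. Together the 136 higher transcripts held 0.284%, 0.405% and 0.465% of TPM in the control libraries and 2.33%, 2.45% and 1.25% at day 14. The 88 lower ones held 2.46%, 1.26% and 2.19% in the control libraries and 0.444%, 0.372% and 0.413% at day 14. The lowest summed level of the higher set at day 14 was again that of replicate 3, which had the level closest to the control mean in 106 of the 136 transcripts. For the lower set this held for replicate 1 in 48 of 88. Since these transcripts were chosen by the day 14 contrast, the sums describe them and test nothing. Called transcripts made up 11.98% of the gained and 11.4% of the lost TPM, so most of the TPM that moved lay in transcripts that did not pass the thresholds.

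The number of calls depended on the libraries and the samples in the fit. It was 36, 89 and 110 without control replicate 1, 2 and 3, and 61, 13 and 377 without day 14 replicate 1, 2 and 3. The balance of 136 higher to 88 lower changed as well, to 18 and 18 when control replicate 1 was left out, 15 and 46 for day 14 replicate 1, 2 and 11 for day 14 replicate 2, and 7 and 9 in a test against a 2-fold change. With only the 6 compared libraries in the fit edgeR called 0 transcripts, while 4246 had an unadjusted p under 0.05 and DESeq2 with the 12 libraries called 1505 (5.92%).

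Size and direction of change differed between abundance classes, set by the mean TPM of the 6 libraries. The class under 1 TPM had 4144 transcripts, 1 to 10 TPM 11297, 10 to 100 TPM 8662, 100 to 1000 TPM 1207 and 1000 TPM or more 114. The median log2 fold change fitted by edgeR, day 14 over control, was 0.32 under 1 TPM and 0.14 from 1 to 10 TPM. It was -0.10 from 10 to 100 TPM, -0.27 from 100 to 1000 TPM and -0.18 at 1000 TPM or more, against 0.02 over all tested transcripts. Rare transcripts were thus centred above and abundant ones below the middle of the distribution. These 5 medians kept their sign under each of the 16 alternatives that changed the fit, with ranges from 0.23 to 0.41, from 0.12 to 0.20, from -0.13 to -0.04, from -0.33 to -0.21 and from -0.25 to -0.10. With 10 reads required in every library, which leaves out transcripts that passed through one group only, the median was 0.26 under 1 TPM and -0.27 from 100 to 1000 TPM. On the TPM scale, which is not corrected for composition, the median log2 ratio of group means over all transcripts was 0.17. The class medians there were 0.46, 0.30, 0.06, -0.11 and -0.01, so the order of the classes was the same, while the class from 10 to 100 TPM was centred above 0 and below the median of all.

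**Figure D3:**
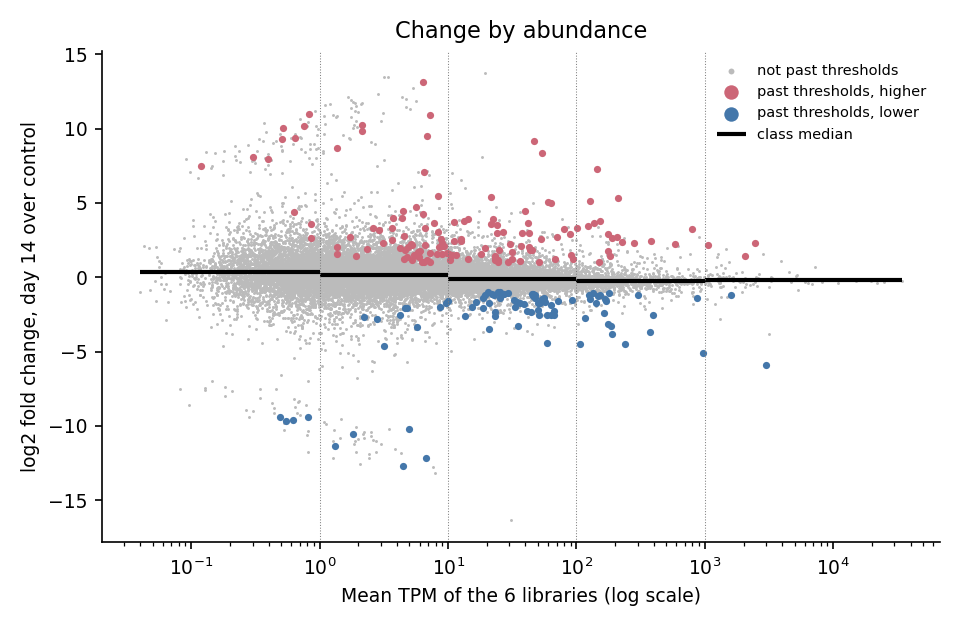
Each point is 1 of 25424 transcripts, with its mean TPM over the 6 libraries (log scale) against its log2 fold change at day 14 over control, and the 136 higher and 88 lower calls are coloured. Black lines mark the class medians, which pass from 0.32 under 1 TPM to -0.27 from 100 to 1000 TPM, and fitted values of transcripts with almost no reads in one group are not bounds.

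The classes were also compared library by library. For transcripts of 100 to 1000 TPM, the median of log2 CPM (counts scaled to library size by TMM) relative to each transcript's mean over the 6 libraries was 0.22, 0.15 and 0.04 in control replicates 1 to 3 and -0.19, -0.12 and -0.05 in day 14 replicates 1 to 3. For those of 1 to 10 TPM it was -0.06, 0.01 and 0.03 in the controls and 0.18, 0.10 and 0.18 at day 14. Control and treated values were separate in either class, and control replicate 3 was the control library nearest to day 14 in both. The groups also did not overlap under 1 TPM and from 10 to 100 TPM, but did overlap at 1000 TPM or more, where control replicate 3 was at -0.06 and day 14 replicate 3 at 0.03.

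The direction of non-overlap followed abundance as well. In TMM-scaled CPM the groups did not overlap for 27.6% of all transcripts, 3533 higher (13.9%) and 3484 lower (13.7%) at day 14. Under 1 TPM 614 were higher and 246 lower, and from 1 to 10 TPM 1832 were higher and 970 lower. From 10 to 100 TPM 982 were higher and 1804 lower, and from 100 to 1000 TPM 92 were higher and 437 lower. Transcripts that passed the read rule through 1 group alone add to these counts. Among the 19295 transcripts with 10 or more reads in every library, a restriction chosen after seeing the data, 147 were higher and 53 lower under 1 TPM, 1422 and 740 from 1 to 10 TPM, 950 and 1793 from 10 to 100 TPM, and 90 and 437 from 100 to 1000 TPM. The direction in each of these classes was the same. Over all 19295 transcripts, including those of 1000 TPM or more (13 higher, 27 lower), the balance turned to 2622 higher and 3050 lower. In TPM the balance over all transcripts moved to 4502 higher (17.7%) and 2024 lower (7.96%). The class from 10 to 100 TPM then turned to 1394 higher and 928 lower, and the class of 1000 TPM or more turned from 13 higher and 27 lower to 22 and 16, while the other 3 classes kept their direction. An unadjusted p under 0.05 from edgeR was reached by 17.7% of all transcripts (9.2% higher, 8.46% lower), by 272 higher and 106 lower ones under 1 TPM and by 90 higher and 329 lower ones from 100 to 1000 TPM.

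Calls past both thresholds were made in 0.362% of the transcripts under 1 TPM (11 higher, 4 lower), 0.611% from 1 to 10 TPM (54 higher, 15 lower) and 1.11% from 10 to 100 TPM (50 higher, 46 lower). They were made in 3.23% from 100 to 1000 TPM (18 higher, 21 lower) and 4.39% at 1000 TPM or more (3 higher, 2 lower). The size of change was largest in the 2 rarest classes, since the median absolute log2 fold change was 0.82 under 1 TPM, 0.51 from 1 to 10 TPM and 0.30, 0.38 and 0.29 in the 3 more abundant classes. The spread between replicates was also larger in the 2 rarest classes, with a median SD of log2 CPM of 1.15 under 1 TPM, 0.58 from 1 to 10 TPM, and 0.27, 0.26 and 0.27 above. The median transcript had a mean of 23.7 reads per library under 1 TPM, 143 from 1 to 10 TPM and 4083 from 100 to 1000 TPM. The part of read depth in the share of calls per class was not tested. Without day 14 replicate 2 the calls in the 5 classes were 2, 8, 1, 2 and 0, and without day 14 replicate 3 they were 9, 109, 190, 64 and 5, so the shares per class rest on these libraries.

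The TPM held by whole classes moved little in percentage points of a library, but the classes below 10 TPM moved more relative to their own share. Their group means went from 4.30% to 5.19% for 1 to 10 TPM and from 0.192% to 0.257% under 1 TPM. The class from 1 to 10 TPM held 3.84%, 4.30% and 4.77% in the control libraries and 5.71%, 5.04% and 4.80% at day 14. The class under 1 TPM held 0.164%, 0.190% and 0.224% in the controls and 0.273%, 0.251% and 0.246% at day 14. In both classes the day 14 libraries were above the controls without overlap, by 0.884 and 0.0641 percentage points on average (two-sided exact permutation test, n = 3 per group, p = 0.1, the smallest possible, and 0.4 after adjustment over 8 shares). Without control replicate 1 these differences were 0.580 and 0.0375 percentage points, and in reads scaled to library size only 1.73 and 0.149. With classes set by the control TPM alone they were 1.61 and 0.374, but there the control values that are compared also choose the class, so these values do not bear on stability. Transcripts of 10 to 100 TPM held 25.05% ± 1.67 (SD, n = 3) in the controls and 26.0% ± 1.63 (SD, n = 3) at day 14, with overlapping groups, and the difference of 1.00 percentage points was 0.178 without day 14 replicate 1, 0.196 without control replicate 1 and 0.663 without control replicate 2, and 1.73 and 1.74 without control replicate 3 and day 14 replicate 3. Transcripts of 100 to 1000 TPM held 31.4% ± 0.535 (SD, n = 3) in the controls and 30.3% ± 0.895 (SD, n = 3) at day 14, with overlapping groups. The difference of -1.14 percentage points was -0.375 without day 14 replicate 3 and, in reads scaled to library size only, -2.05 (exact permutation test, p = 0.1, the smallest possible). Transcripts of 1000 TPM or more held 40.8%, 39.7% and 35.8% in the controls and 34.8%, 38.0% and 40.8% at day 14, a mean difference of -0.901 percentage points that lay within the spread of either group. This difference turned to 0.404 without control replicate 1 and to 0.200 without day 14 replicate 1. It stayed below 0 when any other library was left out, down to -2.65 without day 14 replicate 3. For the 100 most abundant transcripts the share was 37.3% ± 2.59 (SD, n = 3) against 36.4% ± 3.09 (SD, n = 3). Within the class of 1000 TPM or more, gains of 3.73% and losses of 4.63% of TPM nearly offset each other. Of all TPM that moved between the group means, this class held 30.7%, the class from 100 to 1000 TPM 34.7%, that from 10 to 100 TPM 26.3%, and the classes below 10 TPM together the remainder.

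Transcript length moved with the same contrast. The median log2 fold change was -0.25 for transcripts of up to 500 bases, -0.19 from 500 to 1000, -0.12 from 1000 to 2000, 0.00 from 2000 to 4000 and 0.27 over 4000 bases. Transcripts over 4000 bases held 5.85%, 5.86% and 7.11% of TPM in the controls and 9.73%, 7.72% and 7.203% at day 14, without overlap of the groups but with control replicate 3 and day 14 replicate 3 close to each other. Of these 6450 transcripts 57 were called higher and 15 lower (1.12% in all), and of the 342 transcripts of up to 500 bases 0 were called higher and 5 lower (1.46%), beside 0.881% of all tested transcripts. Rare transcripts were also longer, with a median length of 3446 bases under 1 TPM and 1526 bases from 100 to 1000 TPM. Among transcripts of at most 2000 bases the median log2 fold change was 0.14 under 1 TPM, 0.05 from 1 to 10 TPM, -0.20 from 10 to 100 TPM and -0.28 from 100 to 1000 TPM. Among those over 2000 bases it was 0.36, 0.18, -0.03 and -0.21 in the same classes, so these 4 classes had the same order at both lengths. At 1000 TPM or more the median was -0.18 for 98 transcripts of at most 2000 bases and 0.02 for 16 longer ones, which lay outside this order. The median effective length, which Salmon corrects for fragment length, was 2070, 2067.5 and 2073 bases in control replicates 1 to 3. In day 14 replicates 1 to 3 it was 2062.9, 2066.6 and 2063.2 bases, each below every control library. The part of this difference in the length trend was not tested.

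**Figure D4:**
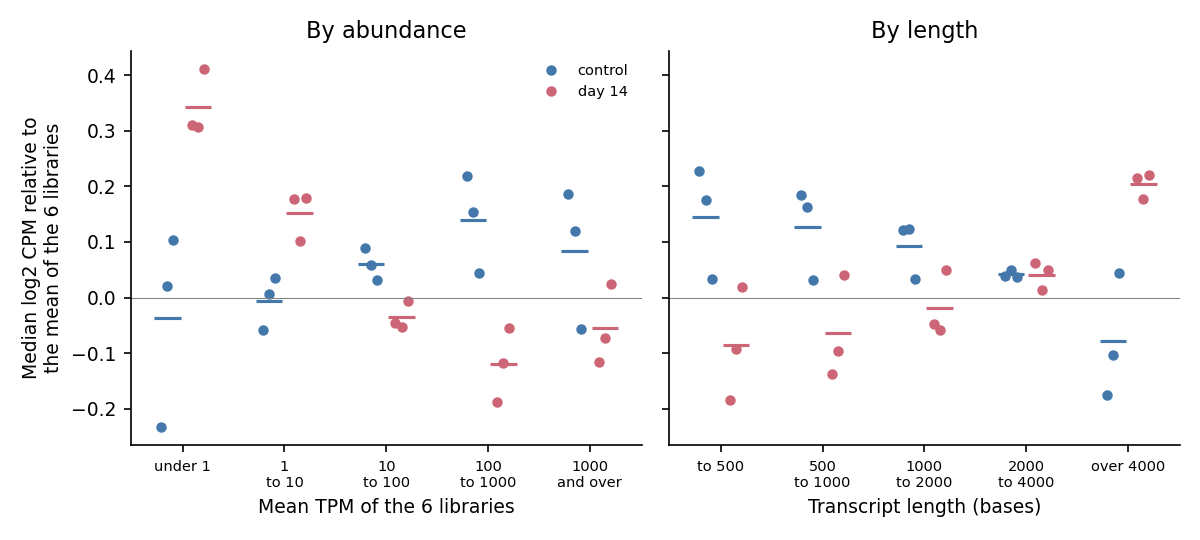
Points are single libraries, 3 control and 3 day 14, and give the median over a class of log2 CPM relative to each transcript's mean over the 6 libraries, with lines at group means. The left panel sorts transcripts by abundance and the right panel by length, and the groups overlap at 1000 TPM or more and in the 3 length classes from 500 to 4000 bases. Day 14 points lie above all controls under 10 TPM and over 4000 bases, and below them from 10 to 1000 TPM and up to 500 bases.

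The called transcripts with the largest change in mean TPM are given by identifier, 2 gains and 2 losses, all with groups that did not overlap. ENSRNOT00000025344.6, a transcript of 1372 bases, had 437, 688 and 1144 TPM in control replicates 1 to 3 and 5020, 4305 and 3087 TPM in day 14 replicates 1 to 3. Each day 14 library was above every control library, and replicate 3 was the lowest of them. Its log2 fold change was 2.31 (edgeR, adjusted p = 0.0152), with an SE of 0.21 in natural log units, not log2. By mean TPM it passed from rank 168 in the controls to rank 22 at day 14. At day 1 and day 3 its mean level was 821 ± 267 and 1184 ± 175 TPM (SD, n = 3). ENSRNOT00000000696.6, of 2554 bases, had 863, 1135 and 1058 TPM in the controls and 3633, 3940 and 1684 TPM at day 14, where replicate 3 was again the lowest. Its log2 fold change was 1.42 (edgeR, adjusted p = 0.0407), with an SE of 0.18 in natural log units. It missed the thresholds in 11 of 18 alternatives (adjusted p from 1.0e-05 to 0.762), so that this call is the least firm of the 4.

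ENSRNOT00000067391.2, a short transcript of 391 bases, lost more TPM than any other of the 25424 transcripts. It had 10239, 1860 and 5367 TPM in control replicates 1 to 3 and 110, 126 and 102 TPM at day 14. The control libraries were spread over a wide range, while the day 14 libraries were close together and far below it. Its log2 fold change was -5.92 (edgeR, adjusted p = 0.0152), with an SE of 0.47 in natural log units, and its rank by mean TPM went from 15 to 1130. Its mean level was 1760 ± 615 TPM at day 1 and 868 ± 274 TPM at day 3 (SD, n = 3). ENSRNOT00000038212.6, of 390 bases, had 3129, 492 and 1933 TPM in the controls and 102, 66.7 and 30.3 TPM at day 14. Control replicate 2 was the lowest and replicate 1 the highest for both of these transcripts. The log2 fold change of ENSRNOT00000038212.6 was -5.08 (edgeR, adjusted p = 0.0202), with an SE of 0.51 in natural log units. Its mean level was 606 ± 130 TPM at day 1 and 439 ± 168 TPM at day 3 (SD, n = 3). All 4 transcripts kept their direction in the 16 alternatives that changed the fit. Of all 18 alternatives, the thresholds were missed in 3 by ENSRNOT00000025344.6, in 2 by ENSRNOT00000067391.2 and in 5 by ENSRNOT00000038212.6. The last missed them without control replicate 1 (adjusted p = 0.0532, edgeR), without day 14 replicate 1 (adjusted p = 0.0604) and in the test against 2-fold (adjusted p = 0.0593), and ENSRNOT00000025344.6 in the test against 2-fold (adjusted p = 0.0965). None of the 4 passed the thresholds with only the 6 compared libraries in the fit (adjusted p from 0.0769 to 0.140) or without day 14 replicate 2 (adjusted p from 0.0600 to 0.152).

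**Figure D5:**
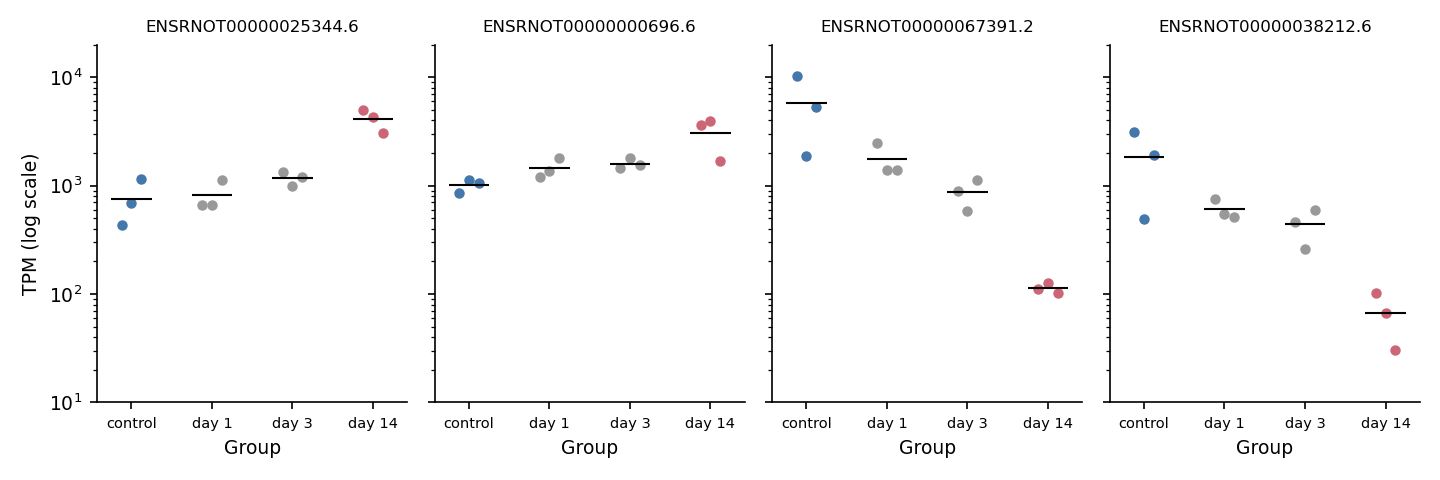
Points are the TPM (log scale) of single libraries in the control, day 1, day 3 and day 14 groups, 3 each, with lines at the means, for the 4 transcripts given by identifier. In each panel the day 14 points lie beyond all control points, above them in the panels of ENSRNOT00000025344.6 and ENSRNOT00000000696.6 and below them in the other panels.

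Of the 100 largest gains 18 and of the 100 largest losses 13 passed both thresholds, against 0.881% of all tested transcripts, and some of the very largest did not. The largest gain belonged to a transcript of 705 bases, with 4672, 6414 and 4535 TPM in the controls and 10513, 10481 and 6961 TPM at day 14. Its groups did not overlap, yet its log2 fold change was 0.66 and its adjusted p 0.154 (edgeR). The second largest loss, of a transcript of 3327 bases, went from 7536, 3013 and 7101 TPM to 51.0, 406 and 851 TPM, with a log2 fold change of -3.85 and an adjusted p of 0.114 (edgeR). A transcript of 1545 bases with the third largest loss had 22839, 25693 and 22337 TPM in the controls and 16535, 20221 and 23178 TPM at day 14, where replicate 3 lay within the controls. Of the 10 largest gains 9 and of the 10 largest losses 4 had groups that did not overlap in TPM, beside 25.7% of all transcripts, and they were ranked by the same TPM difference.

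Against the same control libraries, the TPM that moved between group means was 14.8% at day 1 and 19.2% at day 3, beside 13.6% at day 14. The difference between the days was not tested.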

How the data were processed

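RNA from perigonadal fat was polyA selected, and libraries were made with a directional kit. The authors quantified transcripts with Salmon (version not given in the sources used here) against Ensembl transcripts of mRatBN7.2, while the submitters' processing notes name rn6. The labels give Rattus rattus for Sprague-Dawley rats. The authors deposited an estimated count and a TPM value per transcript and library, with transcript and effective lengths.

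Estimated counts were rounded and tested with edgeR 4.0.16 in R 4.3.3 (TMM, robust glmQLFit and glmQLFTest, 12 libraries in 1 fit), on transcripts with 10 or more reads in 3 or more of the 6 compared libraries. Standard errors are the unshrunk coefficient over the root of F, in natural log units, while fold changes are on the log2 scale. TPM was summed, not tested per transcript. Single values were tested by exact permutation over the 6 libraries. The fit was tested on simulated data of 23726 transcripts. Of 200 transcripts given an 8-fold change it recovered 136 (68%), and 5 calls were false. These 200 were drawn only from transcripts above a minimum mean read count, so the 68% does not cover the rarest transcripts. Alternatives were DESeq2 1.42.0, other scalings, filters and fits, a replicate block, and leaving out each library.

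Transcripts are named by identifier for the 2 largest gains and 2 largest losses of mean TPM among calls whose groups did not overlap. Members, classes and this rule were chosen with earlier results of these data known. The length classes, the library medians and the transcripts given by length were chosen after their values were seen. The study states 3 biologic replicates, and with 3 against 3 libraries an exact p cannot be below 0.1. The study's supplementary table of fold changes was not used.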

Additional observations from a re-analysis of the deposited data

Results flagged for a closer look

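For 3 of the 4 transcripts given by identifier the level at day 14 also differed from that at day 1 or day 3 in the fit of 12 libraries (edgeR, adjusted p under 0.05 over all tested transcripts). They were chosen for their day 14 difference from control with the same day 14 libraries, so this is not independent support. ENSRNOT00000025344.6 was higher at day 14 by 2.34 on the log2 scale than at day 1 (adjusted p = 0.0165, edgeR) and by 1.87 than at day 3 (adjusted p = 0.0132, edgeR). ENSRNOT00000067391.2 had a log2 fold change of -3.99 at day 14 over day 1 (adjusted p = 0.0223, edgeR) and of -2.85 over day 3 (adjusted p = 0.0339, edgeR). ENSRNOT00000038212.6 had a log2 fold change of -3.29 over day 1 (adjusted p = 0.0472, edgeR), while its difference from day 3 did not pass (log2 fold change -2.70, adjusted p = 0.0597, edgeR). For ENSRNOT00000000696.6, at 1454 ± 301 TPM at day 1 and 1595 ± 170 TPM at day 3 (SD, n = 3), neither difference passed. Its log2 fold change was 1.08 over day 1 (adjusted p = 0.0730, edgeR) and 1.00 over day 3 (adjusted p = 0.0723, edgeR).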

How the results depend on the processing

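The 224 calls became 1505 with DESeq2 (962 higher, 543 lower), 508 with edgeR's bias-adjusted method, 356 with 10 reads in every library, 16 with a test against a 2-fold change and 0 with the 6 compared libraries only, and ranged from 13 to 377 with 1 library left out. DESeq2's calls held all 224 and the 377 calls without day 14 replicate 3 held 173 of them, while the 13 without day 14 replicate 2 held 8. The cause was not tested. RLE, upper-quartile and total-count scaling, no filter, filterByExpr and no fold threshold gave between 169 and 259. More were lower than higher without day 14 replicate 1 (15 higher, 46 lower) and replicate 2 (2 and 11) and in the test against 2-fold (7 and 9), and as many without control replicate 1 (18 and 18).

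By class, from under 1 TPM to 1000 TPM or more, DESeq2 called 201, 715, 471, 108 and 10. With 10 reads in every library 4, 122 and 175 were called in the 3 rarer classes, and with classes by control TPM 37 were under 1 TPM. With 1 library left out the calls ranged from 2 to 9, 8 to 109, 1 to 190, 2 to 64 and 0 to 5.

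With a replicate block 131 passed (78 higher, 53 lower). Deviations from the group means correlated at -0.033, 0.008 and -0.026 across transcripts for same-numbered libraries. For the other pairs of a control and a day 14 library they correlated between -0.042 and 0.064. With 3 libraries per group and such spread between replicates, these values cannot show whether same-numbered libraries came from the same animal.

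With 1 library left out, the difference in TPM share ranged from -2.65 to 0.40 percentage points for transcripts of 1000 TPM or more, from -1.79 to 0.12 for the 10 and from -2.55 to 0.47 for the 100 most abundant, so no direction holds there. The excess of TPM differing across groups was between 2.58 and 7.47 percentage points in all alternatives.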

Other observations

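Of the 25424 transcripts 143 had at most 3 reads in every control library and 10 or more in every day 14 library, and 85 had the reverse pattern. The 143 together held 0.0404% of TPM at day 14 and the 85 held 0.0311% in the controls. The highest mean level among them was 38.4 TPM for the first set and 61.7 TPM for the second. Of these, 14 and 9 passed both thresholds, beside 0.881% of all tested transcripts, and are among the 136 and 88 calls. Both sets were chosen by presence in 1 group, so these calls are a description. Salmon divides shared reads among isoforms, so an isoform without reads says nothing of the gene as a whole. In 1698 of the 25424 transcripts a library with at most 3 reads stood beside one with at least 100 in the same group, 11.7% of those from 1 to 10 TPM and 0.0829% of those from 100 to 1000 TPM.

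The number of transcripts that held 50% of a library's TPM was 217, 254 and 336 in the controls and 355, 292 and 238 at day 14. The number that held 90% was 5373, 5922 and 6374 in the controls and 7166, 6576 and 6355 at day 14, where the groups overlapped only in control replicate 3 and day 14 replicate 3.

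In the libraries of day 1, the 136 transcripts called higher at day 14 held 0.447%, 0.499% and 0.729% of TPM, and at day 3 0.703%, 0.743% and 0.688%. The 88 called lower held 1.73%, 1.27% and 1.47% at day 1 and 1.14%, 0.977% and 1.39% at day 3.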
